A study of Aspergillus nidulans with 6 samples.

Results

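The genes described here make the core structures of nonribosomal peptides, prenylated aromatic compounds and terpenes in the filamentous fungus Aspergillus nidulans. They were taken from a fixed list of 31 locus numbers: 19 nonribosomal peptide synthetase and related genes, the 3 penicillin genes, 5 aromatic prenyltransferase genes and 4 terpene genes. Of these, 29 stood among the 10983 features of the count files, and AN9291 and AN6810 were not analysed here. The study compared 3 RNA-seq libraries of strain LO1362, in which mcrA is intact (genotype mcrA+, here WT), with 3 libraries of strain LO8158, in which mcrA is deleted (genotype mcrA-, here mcrA-deleted). The gene mcrA encodes a negative regulator of secondary metabolism, and the comparison asks which transcripts change in level when it is lost. Both strains grew from spores for 1 day at 37 °C in liquid glucose minimal medium with uridine, uracil, pyridoxine and riboflavin added, and polyadenylated RNA of the mycelium was made into strand-specific libraries. Each genotype is 1 strain, so the deletion and whatever else separates the 2 strains cannot be told apart. The labels do not say that replicates came from separate cultures, and p-values measure only the spread between these libraries.

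A nonribosomal peptide synthetase joins amino acids without a ribosome: an adenylation domain activates each one, a carrier domain holds it on a phosphopantetheine arm, and a condensation domain forms the peptide bond. Related single-module enzymes lack the condensation domain and reduce, join or release an activated acid. Aromatic prenyltransferases place an isoprenoid chain on an aromatic ring, and terpene synthases cyclise isoprenoid diphosphates that come from the mevalonate pathway. In fungi the genes of 1 such pathway usually stand side by side, and many of these clusters give little or no transcript in ordinary laboratory culture.

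Depth ran from 3374534 counts (mcrA-deleted replicate 1) to 6051839 counts (WT replicate 2). The mcrA locus, AN8694 by background knowledge, was at 152 ± 6.21 counts per 1000000 (CPM, library sizes scaled by the trimmed mean of M values, TMM) with mcrA intact and at 72.7 ± 14.6 CPM with it deleted (mean ± SD, n = 3 each, as throughout), which is 48.0% of WT. A feature wholly deleted would hold no reads, so these values do not show a complete deletion, and which bases were deleted is not given in the labels; mcrA-deleted means throughout the libraries labelled so. On the second principal component (10.5% of the variance) WT replicate 3 lay far from its group, and several results below rest on it. mcrA-deleted replicate 1 had 1.06% of its counts in mitochondrial features, against 0.0593% to 0.159% in the other libraries. Among 7 marker genes of conidiophores and spores, which vegetative mycelium should hold at low level, 3 of 4 tested rose (brlA, wA and ivoB; wA not without WT replicate 2 or 3 or mcrA-deleted replicate 1 or 3, ivoB not without WT replicate 2 or mcrA-deleted replicate 3) and the summed level went from 18.8 to 25.7 CPM in WT to 31.5 to 90.7 CPM in the mcrA-deleted libraries. Over all tested features 16.1% rose. The other tested marker, yA, did not pass and pointed down, with a log2 fold change of -0.55 (-0.81 to -0.36 with 1 library left out). None of the 7 was at 0 counts in all libraries, and the part that conidiophores and spores have in the results below was not tested.

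Many of these synthesis genes had few or no counts in either strain. All 29 together held 0.0409% to 0.0432% of the counts of a WT library and 0.0463% to 0.0632% of those of a mcrA-deleted library. Of the 29, 5 had 0 counts in all 6 libraries (17.2%, against 10.8% of all 10740 features with an AN number), and 13 had under 20 counts in all (44.8%, against 21.3%). A further 7 had 0 counts over the WT libraries and some in the mcrA-deleted libraries (24.1%, against 4.79%), while 0 showed the reverse (against 1.29%). Among the 7, AN8504, tdiA (AN8513) and xptA (AN6784) had at most 3 counts over the mcrA-deleted libraries. All 6 counts of AN3252 lay in mcrA-deleted replicate 3. The shares over all features are not matched for level. A count of 0 over the 3 libraries of a genotype allows up to 3 counts, or 0.203 CPM for WT and 0.222 CPM for the mcrA-deleted group, which covers the error of counting alone, as no source describes molecular identifiers. Of the 24 genes with any count, 18 had the higher pooled level in the mcrA-deleted group and 6 in WT (75.0% higher, against 54.3% of AN-numbered features with a count). The 18 include AN8504, tdiA, xptA and tdiB (AN8514), which had at most 3 counts in either group, so that their direction is not resolved. In bulk samples, fewer hyphae using a gene and less RNA per hypha cannot be told apart.

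Only 12 of the 29 had enough counts to be tested, 11 peptide synthetase and related genes and 1 penicillin gene. Calls rest on edgeR's quasi-likelihood test at an adjusted p under 0.05 (Benjamini-Hochberg over the 7852 features kept). Among the 12, 3 rose, 1 fell and 8 did not pass. Over all tested features, 16.1% were called higher and 13.7% lower, 29.8% in all, against 4 of these 12. The groups did not overlap for 5 of the 12, against 48.9% of all tested features. A gene silent in WT passes the count filter only through its counts in the mcrA-deleted libraries, which leans the tested genes towards rises. With no count filter 24 were tested, 5 rose and 1 fell, where 13.3% of all features were called higher and 11.3% lower. The calls were 2 higher and 0 lower without WT replicate 1, WT replicate 2, mcrA-deleted replicate 2 or mcrA-deleted replicate 3, and without WT replicate 3 there were 4 higher and 1 lower. An exact two-sided permutation test of 3 against 3 libraries cannot give a p below 0.1, which every pair of groups that did not overlap reached.

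**Figure D1:**
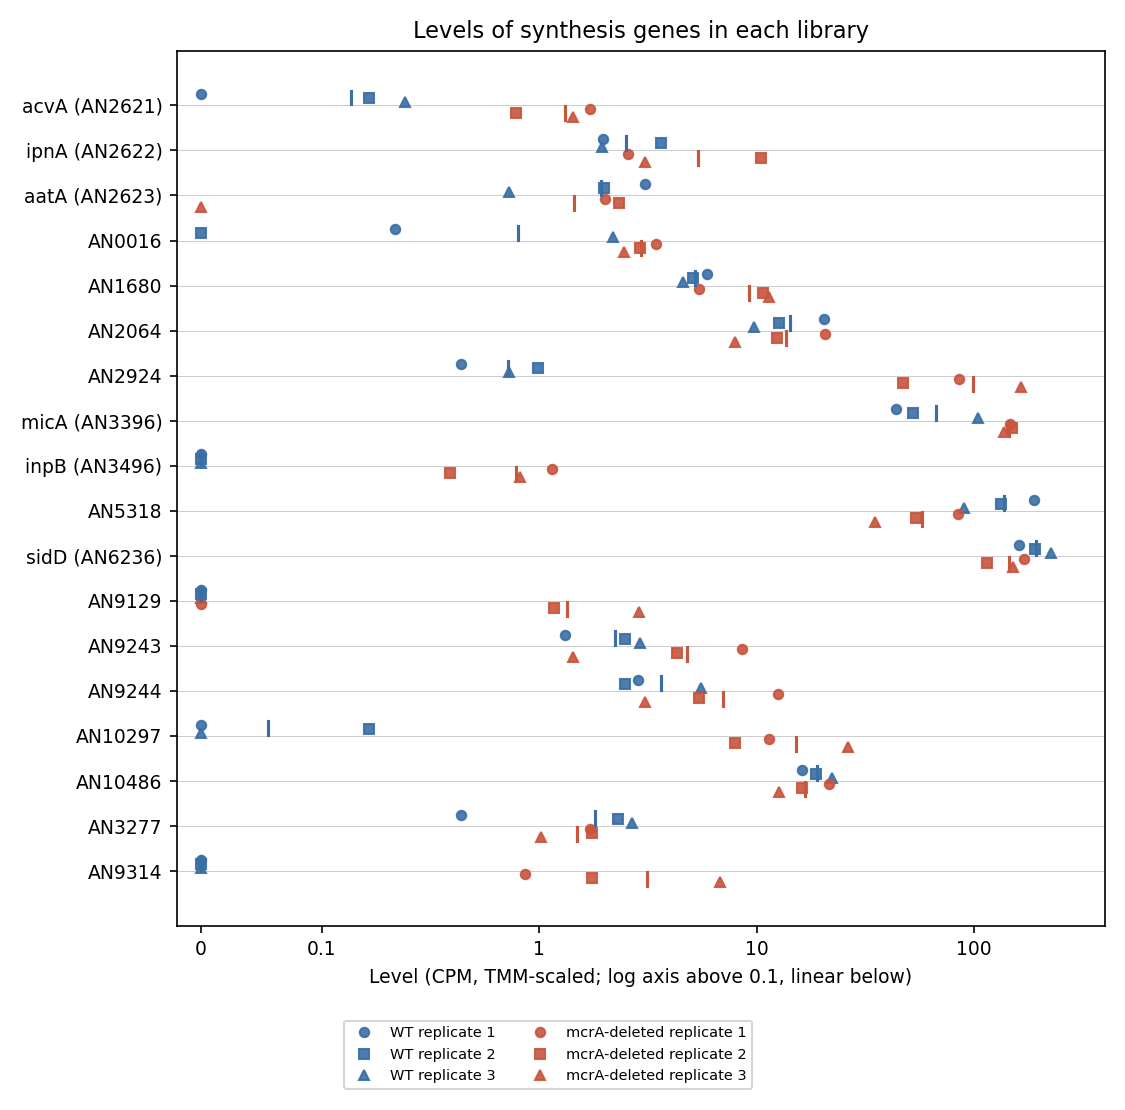
Level of each of the 18 synthesis genes with at least 10 counts in all, as TMM-scaled CPM on an axis that is logarithmic above 0.1 and linear below. Each point is 1 library (blue WT, red mcrA-deleted; circle, square and triangle for replicates 1 to 3) and each short line the mean of 3. AN2924 and AN10297 separate the genotypes by the widest gap. The groups overlap for ipnA, aatA, AN1680, AN2064, sidD, AN9129, AN9243, AN9244, AN10486 and AN3277.

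The summed level overlapped between the strains, while the shares of its 4 leading genes did not. The summed level of all 29 genes was 446, 428 and 475 CPM in WT replicates 1 to 3 and 581, 445 and 572 CPM in mcrA-deleted replicates 1 to 3. In WT, sidD and AN5318 led: sidD held 36.0% to 47.7% and AN5318 18.9% to 42.3% of the sum. In the mcrA-deleted libraries sidD held 25.8% to 29.2%, AN5318 6.12% to 14.6%, micA 24.0% to 33.6% and AN2924, which held at most 0.232% in WT, 10.6% to 28.8%. Per kilobase of feature, introns included, the order of levels in WT was AN5318 (33.5 ± 12.1 CPM per kb), sidD (28.6 ± 4.92), micA (17.4 ± 8.50), AN10486 (5.41 ± 0.878) and AN2064 (4.15 ± 1.62; SD, n = 3). Libraries of AN5318 and sidD, of sidD and micA, and of AN10486 and AN2064 overlapped, while those of micA all lay above those of AN10486. In the mcrA-deleted libraries it was micA (37.3 ± 1.65 CPM per kb), AN2924 (27.4 ± 16.6), sidD (21.6 ± 4.17), AN5318 (14.1 ± 6.10), AN10486 (4.77 ± 1.25) and AN10297 (4.23 ± 2.69). There all neighbours in the order overlapped except AN5318 and AN10486.

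**Figure D2:**
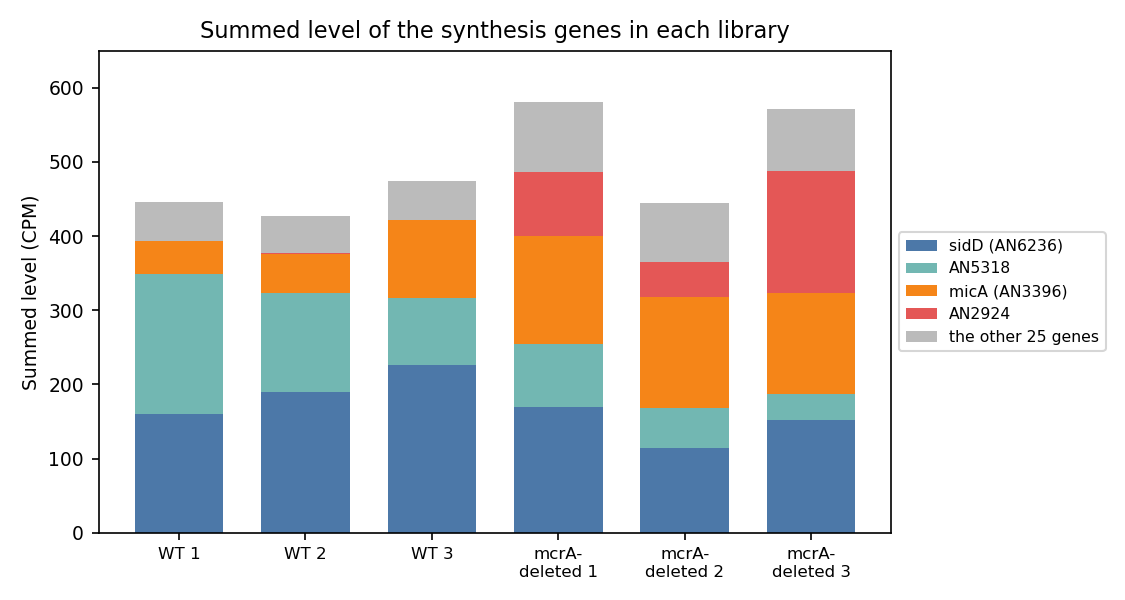
Summed level of the 29 synthesis genes in each library, in CPM, with the 4 genes of highest level in colour and the other 25 in grey. sidD and AN5318 fill most of the WT bars, and AN2924, hardly visible there, takes 10.6% to 28.8% of the mcrA-deleted bars.

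The penicillin genes stand next to each other near the end of chromosome VI and encode the whole pathway: acvA (AN2621, 3362471 to 3373783) makes the tripeptide from aminoadipate, cysteine and valine, ipnA (AN2622, 3360450 to 3361817) closes its rings to isopenicillin N, and aatA (AN2623, 3358277 to 3359896) exchanges the side chain. Coordinates follow the deposited tables, in which chromosomes carry the name of strain FGSC A4; no build is named in the sources used here. Of the 3, acvA alone was called, and only when no count filter was used. acvA, described in detail after its values were seen because it fell just short of 20 counts, had 0, 1 and 1 counts with mcrA intact and 6, 4 and 7 with it deleted (replicates 1 to 3 in order, here and below). The groups did not overlap, and the pooled ratio was 9.29 (exact binomial 95% interval 2.21 to 82.9, counting error only). It ranged from 6.40 (1.52 to 57.1) without WT replicate 1 to 13.4 (2.10 to 559) without WT replicate 3. acvA was too low for the filtered test and was called higher when no filter was used (adjusted p = 0.0407, quasi-likelihood test of edgeR). ipnA, which faces acvA across a gap of 653 bases, had 9, 22 and 8 counts in WT and 9, 54 and 15 in the mcrA-deleted libraries, and the groups overlapped. Its log2 fold change was 1.09 (SE 0.606, 95% interval -0.32 to 2.51), which did not pass (adjusted p = 0.207, quasi-likelihood test of edgeR). Nearly all of that rested on mcrA-deleted replicate 2, without which the value was 0.15. aatA had 14, 12 and 3 counts in WT and 7, 12 and 0 in the mcrA-deleted libraries. It was too low for the filtered test, and its log2 fold change with no filter was -0.45 (SE 0.934), not called. Among the other features within 5 places of the 3 genes, AN2626 and AN10329 were tested and neither was called.

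Genes that feed or regulate penicillin synthesis were all measurable. Of 10 listed, all were tested, 5 rose, 0 fell and 5 did not pass, with a median log2 fold change of 0.36, against 16.1% higher and a median of 0.00 over all tested features. The rises numbered 2 without WT replicate 1 or 2, 3 without WT replicate 3 or mcrA-deleted replicate 2 or 3, and 4 without mcrA-deleted replicate 1. The list was chosen with earlier results of these data known, so setting it beside all features is a description and not a test. phacA (AN8218), the phenylacetate hydroxylase that draws a side-chain precursor into catabolism, had 90, 163 and 122 counts in WT and 483, 990 and 1669 in the mcrA-deleted libraries and rose by 3.14 on the log2 scale, as are the changes that follow (SE 0.358, adjusted p = 0.00177, quasi-likelihood test of edgeR). It overlaps AN8219, so some of its reads may be those of AN8219. laeA (AN0807), a nuclear regulator of many metabolite clusters, rose by 1.16 (SE 0.207). Both calls held in each of the 6 refits without 1 library. aatB, a paralogue of aatA, veA and hapC rose by 0.54, 0.52 and 0.52, but the call of veA was lost in all 6 of these refits, that of aatB in 5 and that of hapC without WT replicate 1 or 2. npgA (AN6140), whose product attaches the phosphopantetheine arm that every synthetase needs, stood at 11.7 ± 2.71 CPM for WT and 11.6 ± 0.455 CPM for the mcrA-deleted libraries. Its log2 fold change was -0.02 (SE 0.230). pacC, hapB, hapE and lysF did not pass either.

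The largest rises were in the synthetase-related genes AN2924 and AN10297, which were close to silent in WT. AN2924 (chromosome VI, 2380806 to 2384412, plus strand) had 2, 6 and 3 counts with mcrA intact, against 298, 241 and 803 with it deleted. Every mcrA-deleted library lay far above every WT library, and replicate 3 was the highest. In level it went from 0.718 ± 0.278 to 98.9 ± 59.9 CPM (n = 3 each), a log2 fold change of 7.01 (SE 0.637, adjusted p = 0.000941, quasi-likelihood test of edgeR). Its rank per kilobase among AN-numbered features moved from the percentile 21.1 in WT to 72.1 in the mcrA-deleted group. Without mcrA-deleted replicate 3 the log2 value was 6.42, and the call held in all 6 refits without 1 library. AN10297 (chromosome VII, 3812786 to 3816380, minus strand) had 0, 1 and 0 counts in WT and 40, 41 and 128 in the mcrA-deleted libraries, again with replicate 3 the highest. The pooled ratio was 228 (40.6 to 9065), and its call also held in all 6 refits. The ratio was 139 (24.2 to 5543) without mcrA-deleted replicate 3, 157 (28.0 to 6249) without WT replicate 1, and 165 (29.2 to 6530) without WT replicate 3. Leaving out WT replicate 2, which held the 1 count, AN10297 was at least 44.9-fold higher, a bound set against 3 counts over the group.

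Neither gene rose as part of an unbroken run of called features. Beside AN2924, of 10 flanking features (5 on each side) 9 were tested, 1 rose and 2 fell. The feature that rose, AN2921, stands 3 places after it and had 0 counts in WT and 12, 14 and 78 in the mcrA-deleted libraries. It was at least 37.9-fold higher, or at least 14.8-fold without mcrA-deleted replicate 3 and 22.4-fold without WT replicate 2. AN2923 and AN2922, which lie between them, had 1, 3 and 84 counts and 0, 1 and 100 counts in WT. With mcrA deleted they had 45, 79 and 94, and 43, 55 and 33. In CPM, WT replicate 3 lay above every mcrA-deleted library for these 2 genes, which did not pass, but not for AN2924 or AN2921. AN11691 and AN2926, on the other side, fell by 0.90 and 0.57, the second without a call with library size alone or when WT replicate 1 or 2 or mcrA-deleted replicate 2 or 3 was left out. Beside AN10297, 6 of 10 flanking features were tested and 1 rose: AN2407, 5 places away, with 0, 0 and 2 counts in WT and 38, 65 and 96 in the mcrA-deleted libraries. Its pooled ratio was 109 (29.7 to 904), or 64.2 (17.5 to 534) without WT replicate 2, and AN2407 was at least 52.2-fold higher when WT replicate 3 was left out. It overlaps AN11337. The 4 features between them had log2 fold changes from -0.62 to -0.12 and did not pass.

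**Figure D3:**
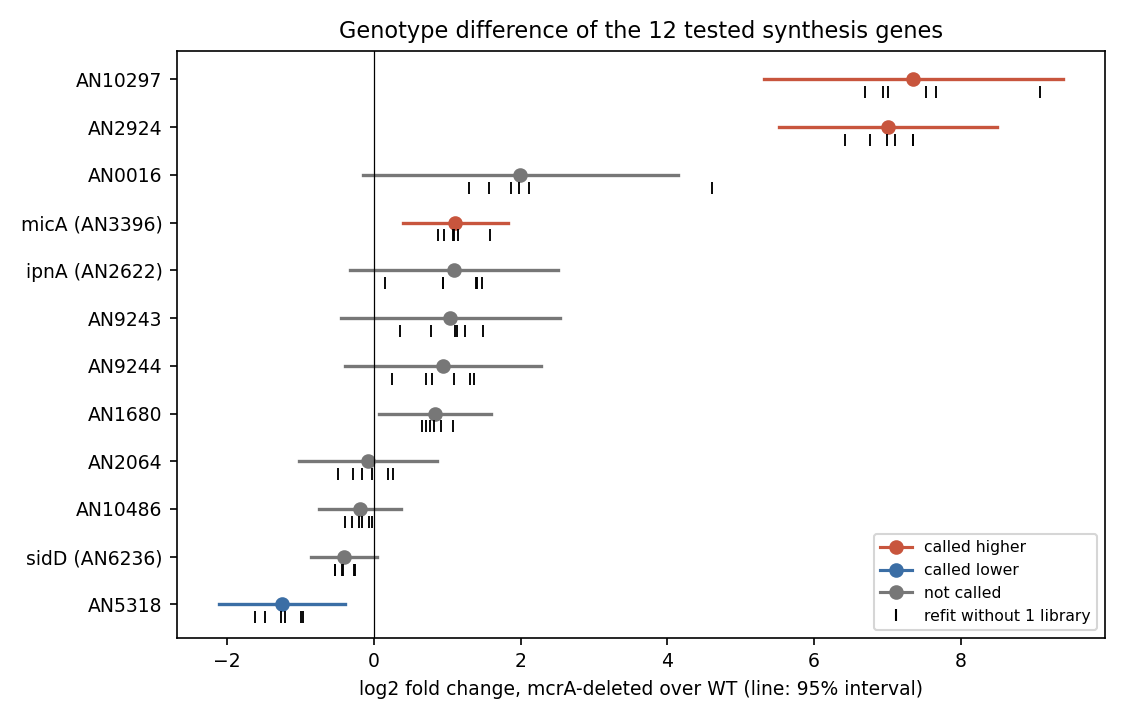
Log2 fold change (mcrA-deleted over WT) of the 12 tested synthesis genes, with the 95% interval from edgeR's quasi-likelihood fit as a line and the 6 refits without 1 library as black ticks. Only AN2924 and AN10297 lie clear of the others, and the tick of AN0016 at 4.61 is the refit without WT replicate 3.

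micA (AN3396, chromosome VI, 840978 to 844847, minus strand), which encodes the single-module enzyme that makes microperfuranone from phenylpyruvate, rose together with the pair of genes beside it. Its levels were 44.0, 52.7 and 105 CPM in WT replicates 1 to 3 and 146, 150 and 137 CPM in mcrA-deleted replicates 1 to 3. The groups did not overlap, the mcrA-deleted libraries were close to each other, and WT replicate 3 lay between the 2 other WT libraries and the mcrA-deleted ones. The log2 fold change was 1.11 (SE 0.306, 95% interval 0.39 to 1.82, adjusted p = 0.0323, quasi-likelihood test of edgeR). AN3395, the next feature (845161 to 846658), had 2, 10 and 29 counts in WT and 103, 208 and 145 in the mcrA-deleted libraries and rose by 3.51 (SE 0.658, adjusted p = 0.00815, quasi-likelihood test of edgeR). AN3394 (847055 to 848916; symbol fmaG in RefSeq), beyond it, had 10, 33 and 92 counts in WT and 279, 282 and 200 in the mcrA-deleted libraries and rose by 2.58 (SE 0.694, adjusted p = 0.0289, quasi-likelihood test of edgeR). WT replicate 3 was the highest WT library for all 3 genes, and leaving it out gave log2 values of 1.58, 4.87 and 3.88. The other 8 flanking features had too few counts to be tested, so the 3 called genes stood alone in a stretch of little transcript. The call of micA held without WT replicate 3 but was lost without any 1 of the other 5 libraries (adjusted p from 0.000521 to 0.110 over all alternatives). That of AN3394 was lost without WT replicate 2 or mcrA-deleted replicate 1 or 2, and that of AN3395 held throughout.

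AN5318 (chromosome V, 3160242 to 3164343, minus strand), the most abundant of these genes per kilobase in WT, was the one that fell. It stood at 189, 134 and 89.9 CPM in WT replicates 1 to 3 and at 84.6, 54.2 and 35.0 CPM in mcrA-deleted replicates 1 to 3. The groups did not overlap, but the lowest WT and the highest mcrA-deleted library were close. The level in the mcrA-deleted group was 42.2% of WT, a log2 fold change of -1.25 (SE 0.367, 95% interval -2.11 to -0.39, adjusted p = 0.0390, quasi-likelihood test of edgeR). The call was lost with library size alone (-1.11, adjusted p = 0.0519) and without WT replicate 1, WT replicate 2, mcrA-deleted replicate 2 or mcrA-deleted replicate 3, with values from -1.63 to -0.96 over the 6 refits. The adjacent gene AN5317 had 61, 80 and 59 counts in WT and 23, 29 and 14 in the mcrA-deleted libraries and also fell, by 1.45 on the log2 scale (SE 0.314), with its call kept in all 6 refits. AN5321, 3 places away on the other side, fell by 1.14 (SE 0.335), but was not called in any of these refits, and it overlaps AN5320 and AN5322. In contrast AN5314, 4 places beyond AN5318, had 0, 0 and 1 counts in WT and 12, 28 and 38 with mcrA deleted, giving a pooled ratio of 85.3 (14.9 to 3410). Leaving out WT replicate 3, which held the 1 count, AN5314 was at least 20.5-fold higher, and the ratio was 50.3 (8.77 to 2013) without WT replicate 2.

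sidD (AN6236, chromosome I, 797414 to 804142, minus strand) encodes the synthetase of the secreted siderophore triacetylfusarinine C, an iron carrier. It did not pass the test although genes beside it fell. Its levels were 161, 190 and 227 CPM for WT and 170, 115 and 152 CPM for the mcrA-deleted libraries, and mcrA-deleted replicate 1 lay above WT replicate 1. The log2 fold change was -0.41 (SE 0.194, 95% interval -0.86 to 0.05, adjusted p = 0.150, quasi-likelihood test of edgeR). Of its 10 flanking features, all tested, 3 fell and 0 rose, against 13.7% lower and 16.1% higher over all tested features. AN6237, next to sidD, fell by 1.76 (SE 0.264), from 115 ± 30.3 to 34.3 ± 10.2 CPM. AN6239, sidJ in RefSeq, fell by 1.28 (SE 0.144). Both calls held in all 6 refits, although AN6239 overlaps AN6238. AN6235, sidH in RefSeq, fell by 0.85 (SE 0.238), a call lost with library size alone and without WT replicate 2 or any 1 mcrA-deleted library. Among 5 other listed siderophore and iron genes, sidA (AN5823), whose ornithine oxygenase starts siderophore synthesis, fell by 1.35 (SE 0.216), with its call kept in all 6 refits, and sidC, sreA, hapX and mirB did not pass. hapX was called lower by DESeq2 and without WT replicate 3 or mcrA-deleted replicate 1, sreA higher with library size alone, and mirB higher without WT replicate 3. The median log2 fold change of the 5 was 0.31.

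**Figure D4:**
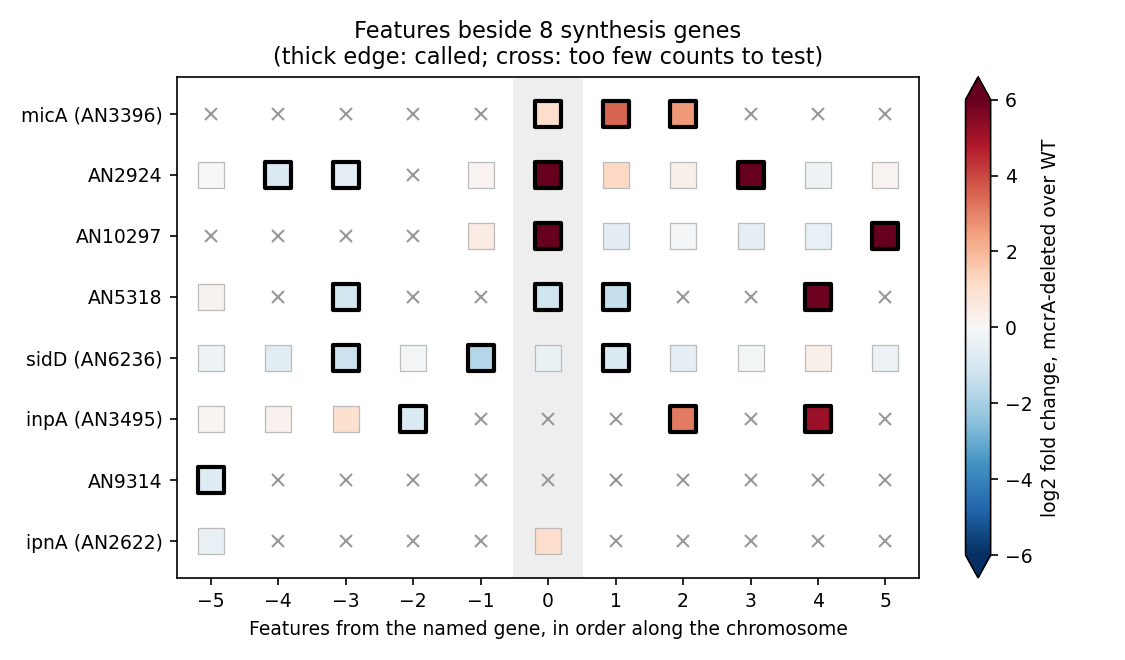
Log2 fold change (colour, mcrA-deleted over WT) of the 5 features on each side of 8 synthesis genes, in order along the chromosome, with the named gene at 0. Thick edges mark called features and crosses those with too few counts to test; the 8 were chosen for the plot after their values were seen. The rise at micA covers 3 adjacent features, while no feature next to AN2924 or AN10297 was called. AN2923 and AN2922, after AN2924, were high in WT replicate 3 but not in the other WT libraries.

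The other tested synthetase-related genes did not pass. AN0016 (chromosome VIII), the longest of all with a feature of 18.2 kb, had 1, 0 and 9 counts in WT and 12, 15 and 12 in the mcrA-deleted libraries. The groups did not overlap in CPM, and the log2 fold change was 2.00 (SE 0.920, 95% interval -0.16 to 4.15, adjusted p = 0.139, quasi-likelihood test of edgeR). WT replicate 3 held 9 of its WT counts, and without it AN0016 was called higher (4.61, adjusted p = 0.00814; 0.00814 to 0.303 over all alternatives). AN1680 (chromosome VII) stood at 5.89, 5.12 and 4.60 CPM for WT and at 5.43, 10.7 and 11.5 CPM for the mcrA-deleted libraries, where replicate 1 lay within the WT range. Its log2 fold change was 0.83 (SE 0.328, adjusted p = 0.0933), and 1.08 and called (adjusted p = 0.0309, quasi-likelihood test of edgeR; 0.0309 to 0.2497 over all alternatives) without mcrA-deleted replicate 1. AN2064 (chromosome VII) and AN10486 (chromosome II) overlapped between the strains and did not pass. AN2064 stood at 20.5, 12.7 and 9.69 CPM for WT and 20.6, 12.5 and 7.99 CPM for the mcrA-deleted libraries, with a log2 fold change of -0.08 (95% interval -1.02 to 0.86). AN10486 stood at 16.1, 18.7 and 22.3 CPM for WT and 21.4, 16.2 and 12.7 CPM for the mcrA-deleted libraries, with one of -0.19 (95% interval -0.74 to 0.37).

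AN9243 and AN9244, adjacent on chromosome VIII with 639 bases between them, varied in parallel over the mcrA-deleted libraries. AN9243 had 6, 15 and 12 counts in WT and 30, 22 and 7 in the mcrA-deleted libraries, and AN9244 had 13, 15 and 23 and then 44, 28 and 15. In CPM both were highest in mcrA-deleted replicate 1 and lowest, within the WT range, in mcrA-deleted replicate 3. Their log2 fold changes were 1.04 (SE 0.637, 95% interval -0.45 to 2.53) and 0.94 (SE 0.573, 95% interval -0.40 to 2.28), neither called. One tested feature flanked them, AN9240, which rose by 1.99 (SE 0.389).

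The fellutamide synthetase genes inpA (AN3495) and inpB (AN3496), neighbours on chromosome II whose products build a proteasome-inhibiting lipopeptide, stayed near the limit of counting while other cluster genes rose. inpA had 0, 1 and 0 counts in WT and 3, 1 and 1 in the mcrA-deleted libraries, with a pooled ratio of 5.46 whose 95% interval, 0.611 to 258, holds 1. inpB had 0 counts in WT and 4, 2 and 4 in the mcrA-deleted libraries, at least 3.64-fold higher, or 2.15-fold without WT replicate 2. With no filter the adjusted p of inpB was 0.0527 (edgeR's quasi-likelihood test). The feature of inpB shares 13 bases with AN3497 on the other strand, which had 102 to 379 counts a library and fell by 0.86 (SE 0.258), a call lost with library size alone and without WT replicate 2 or 3 or mcrA-deleted replicate 2 or 3. Of the 5 other listed cluster genes, AN3491 and AN3493 were tested and rose, by 5.13 (SE 0.574) and 3.14 (SE 0.567). AN3491 had 3, 0 and 3 counts in WT and 56, 71 and 81 in the mcrA-deleted libraries, and AN3490 had 1, 3 and 5 counts in the mcrA-deleted libraries against 0 in WT. AN3492 and AN3494 had 0 counts in all libraries.

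The remaining synthetase-related genes were at or near 0. AN9129 (chromosome VI), which has the symbol tmpL in RefSeq, in other fungi the name of a membrane protein tied to redox balance, had 0 counts in all WT libraries and in mcrA-deleted replicate 1, and 6 and 14 counts in mcrA-deleted replicates 2 and 3. Over the group it was at least 7.29-fold higher, or 3.42-fold without mcrA-deleted replicate 3 and 4.30-fold without WT replicate 2, and it was not called with no filter (adjusted p = 0.0756, quasi-likelihood test of edgeR). tdiA (AN8513), which couples indolepyruvate units in terrequinone synthesis, and AN8504 each had 0 counts in WT and 0, 2 and 1 in the mcrA-deleted libraries. asqK (AN9226), the synthetase that joins anthranilate and a tyrosine derivative in quinolone alkaloid synthesis, and AN8105 had 0 counts in all 6 libraries.

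The 5 aromatic prenyltransferase genes had at most 2 counts in any library. AN10289, AN11194 and AN11202 had 0 counts in all 6 libraries. xptA (AN6784), which prenylates xanthones, had 0 counts in WT and 1, 0 and 1 in the mcrA-deleted libraries, and tdiB (AN8514), the terrequinone prenyltransferase next to tdiA, had 0, 2 and 0 in WT and 2, 0 and 1 in the mcrA-deleted libraries. With so few counts, folds between the genotypes could not be estimated for these 5 at this depth. AN11202 and AN11194 stand 362 bases apart near an end of chromosome VI, and asqK lies beyond them, with 3 features between it and AN11194. The 8 other features flanking AN11194, and the 8 flanking AN11202, most of them the same features, also had 0 counts throughout. The terrequinone gene AN8516 had 0 counts in all libraries. AN8518, which stands between tdiB and AN8516, had 1, 0 and 0 counts in WT and 9, 11 and 22 in the mcrA-deleted libraries. It was called higher, with a pooled ratio of 45.9 (7.80 to 1856). The ratio was 27.1 (4.60 to 1095) without WT replicate 2, and AN8518 was at least 10.5-fold higher when WT replicate 1 was left out. The listed xanthone partners of xptA gave 2 rises among 3 tested, where 16.1% of all tested features were called higher. Of these, xptB (AN12402), the second xanthone prenyltransferase, rose by 2.72 (SE 0.664), and mdpG (AN0150), the polyketide synthase that starts the pathway, by 2.55 (SE 0.469). The call of xptB was lost without WT replicate 1 or 2 or mcrA-deleted replicate 2 or 3. xptC stood at 14.8 ± 2.13 and 16.9 ± 5.65 CPM and did not pass.

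Of the 3 terpene genes in the files, AN9314 (chromosome VIII, 252333 to 255341, plus strand) was the one called when no filter was used. It had 0 counts in all WT libraries and 3, 9 and 33 in mcrA-deleted replicates 1 to 3, so that the groups did not overlap and replicate 3 held most of the counts. It was at least 16.4-fold higher over the group, or 6.85-fold without mcrA-deleted replicate 3 and 9.68-fold without WT replicate 2. The count filter left it out, and with no filter it rose (adjusted p = 0.0252, quasi-likelihood test of edgeR). Of its 10 flanking features only AN9308 was tested, which fell by 0.72 (SE 0.180), a call lost without WT replicate 1 or 2 or any 1 mcrA-deleted library and with library size alone. AN9313 beside it had 0 counts in WT and 3, 0 and 7 in the mcrA-deleted libraries. AN3252 (chromosome VI) had 0 counts in every library but mcrA-deleted replicate 3, which had 6. AN3277 (chromosome VI) had 2, 14 and 11 counts in WT and 6, 9 and 5 in the mcrA-deleted libraries, with a log2 fold change of -0.30 (SE 0.663) when no filter was used, not called. AN3280, a listed terpene gene 3 features from AN3277, stood at 8.50, 12.6 and 19.4 CPM for WT and 7.44, 4.68 and 2.87 CPM for the mcrA-deleted libraries and fell by 1.45 (SE 0.429, adjusted p = 0.0403, quasi-likelihood test of edgeR). That call was lost without WT replicate 2 or 3 or mcrA-deleted replicate 2 or 3.

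No listed gene of isoprenoid and ergosterol synthesis was called higher with all 6 libraries. The list does not separate genes that supply isoprenoids from those that turn them into sterols. Of HMG-CoA reductase (AN3817) and 14 genes with an erg symbol in RefSeq, which lead from acetyl-CoA to ergosterol, all 15 were tested, 0 rose, 5 fell and 10 did not pass, with a median log2 fold change of -0.33. Over all tested features 16.1% were called higher and 13.7% lower, with a median of 0.00. With library size alone, which moved the median of all features by 0.17, 3 of the list fell, 0 rose and the median of the list was -0.15. erg2 fell by 0.91 (SE 0.184), erg9, the squalene synthase, by 0.69 (SE 0.122) and erg6, the sterol methyltransferase, by 0.68 (SE 0.134), each in all 6 refits without 1 library. erg4 and erg4A fell by 0.52 and 0.56, calls that library size alone ended, as did leaving out WT replicate 2 or mcrA-deleted replicate 2 or 3 for erg4 and WT replicate 1 or 2 or mcrA-deleted replicate 3 for erg4A. erg20, the farnesyl diphosphate synthase that supplies sesquiterpenes, had -0.47 (SE 0.154) and HMG-CoA reductase 0.21 (SE 0.214), neither called, although erg20 was called lower by DESeq2 and without mcrA-deleted replicate 1. Without WT replicate 2, 1 gene of the list rose and 3 fell.

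The place and length of the genes were not used to choose them. Of the 29, 8 (27.6%) lay within 50 kb of the outermost feature of their chromosome, against 2.49% of all AN-numbered features; they fall in 3 places, the penicillin genes, AN9243 with AN9244, and asqK with AN11194 and AN11202, so they are not independent. Of these 8, 3 were tested and 0 called, against 29.8% of all tested features, and acvA was called higher with no filter. The median feature length was 3.45 kb, against 1.68 kb. Of the 223 other features within 5 places of a synthesis gene, 103 were tested, 22 rose and 19 fell, with a median log2 fold change of 0.03, against 16.1% higher and 13.7% lower over all tested features. Without WT replicate 2 these were 17 and 10, and without mcrA-deleted replicate 3 they were 20 and 10 (library size alone gave 23 and 12). Of the 9 other peptide synthetase, prenyltransferase and terpene genes listed, 7 were tested, 4 rose (AN1242, easA, AN11080 and xptB), 1 fell (AN3280) and the median log2 fold change was 3.32, against 16.1% higher, 13.7% lower and a median of 0.00 over all tested features. With 1 library left out, 3 or 4 rose, and 0 fell without WT replicate 2 or 3 or mcrA-deleted replicate 2 or 3. This list too was chosen with earlier results of these data known, so setting it beside all features is a description and not a test. Its genes sidC and xptB also stand in the siderophore and xanthone lists above.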

How the data were processed

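Each of the 6 libraries came as 1 table of raw read counts per feature, deposited by the authors without normalization. CASAVA and HISAT (version 1) are named per the submitters' processing notes. The program that counted reads, whether it used strand or multiply mapped reads, the build and the annotation were not given in the sources used here. Counts were compared with edgeR 4.0.16 in R 4.3.3 (TMM scaling, filterByExpr with minimum count 10, quasi-likelihood test, genotype as the only term, two-sided, Benjamini-Hochberg), which kept 7852 features and left out 3131. Intervals and exact permutation tests used scipy 1.17.1. CPM was computed with TMM-scaled sizes, and levels per kb use the feature's start and end. Folds against a genotype with 0 counts are bounds against 3 counts over the group, and ratios with 1 to 3 counts carry exact binomial 95% intervals. The fit was tested on simulated data. Replicate libraries differed by 9.97 to 54.1 times sampling noise (chi-square per degree of freedom), so none was counted as a repeat.

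The genes and lists were chosen with earlier results of these data known. Beside these genes, the naming rule allowed called features in a run with a called gene, up to 3 called features within 5 places of one, and up to 4 called genes of each list. Features named beside genes that were not called (sidD, inpA and inpB, tdiB, AN9243 and AN9244, AN9314), uncalled or untested neighbours, and list genes beyond 4 were chosen after their values were seen. No RefSeq name held the fixed isoprenoid keywords (0 matches), so the 14 genes with an erg symbol in RefSeq were taken instead, a list added after the files were examined. RefSeq (ASM1142v1) was used for names only, and 31 of 31 locus numbers matched. AN8515 and AN8517 were not analysed here.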

Additional observations from a re-analysis of the deposited data

How the results depend on the processing

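Alternatives were RLE scaling, library size alone, the DESeq2 1.42.0 Wald test, no filter, a mean count of at least 50, the replicate block, each library left out, and WT replicate 3 with mcrA-deleted replicate 1 left out together. Synthesis genes called higher (3) became 5 with no filter and 5 with WT replicate 3 and mcrA-deleted replicate 1 both absent, and ranged from 2 to 4 with 1 library left out; those called lower (1) became 0 with library size alone and 0 to 1 with 1 left out. All features called ranged from 758 to 1496 higher and 618 to 1171 lower with 1 left out, with 639 lower with library size alone (1660 higher). Flanking features ranged from 17 to 26 higher and 10 to 16 lower, with 12 lower with library size alone. At a mean count of 50, 14 of 72 tested flanking features were higher, against 22 of 103 in the main fit. AN2064 turned to 0.067 with library size alone, and with 1 library left out it ranged from -0.49 to 0.26 (0.26 if WT replicate 1 and 0.20 if mcrA-deleted replicate 3 was the one), never called. Of 150 refits of the 12 tested genes, 133 kept direction and side of the threshold, 10 lost a call, 4 gained one and 3 changed sign; the cause was not tested. The labels give both genotypes replicate numbers 1 to 3. Deviations of same-numbered libraries correlated at 0.26, -0.08 and 0.17, and those of differently numbered ones at -0.26 to 0.13. These few values cannot decide whether the numbers pair the samples. With the replicate block 3 synthesis genes were higher and 1 lower, and 1333 and 1170 of all features; AN3280, AN3497, AN5321 and aatB lost their calls and hapX gained one. Depth limits 17 of the 29 genes, which were too low for the filtered test.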
